A study of Mus musculus with 6 samples.

Results

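The transcripts described here encode laminin-332, its integrin receptor and the plaque of the hemidesmosome. They are the 8 genes Lama3, Lamb3, Itga6, Itgb4, Col17a1, Dst, Plec and Cd151, which were selected by symbol out of 23481 genes in the count table. Lama3 and Lamb3 were put on the list because their levels were low in the library labelled shAsns-1, so their difference in that library is given as a description without a test. The other 6 were listed for what they encode, with earlier results of these data known, and the question was whether they follow.

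The cells were 4T1 in the labels, a mouse mammary carcinoma line, and the deposited table names them 4T1_T, which the labels do not explain. Cells of all groups were infected with a short hairpin RNA and grown in DMEM with non-essential amino acids. The groups were shAsns-1 and shAsns-2, with hairpins against the asparagine synthetase gene Asns, and shRenilla, the control, named for the luciferase of a sea pansy. The labels give 2 libraries (A and B) per hairpin and do not say whether these are separate cultures, whether the cells were clones, or which promoter drives the hairpin, so p-values measure only the spread between these libraries, which may be technical. No gene had a read in the column for shAsns-1 B, which leaves 1 library for shAsns-1 and 2 each for shAsns-2 and shRenilla.

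Laminin-332 is a secreted heterotrimer, with Lama3 encoding its α3 chain and Lamb3 its β3 chain, and is laid down under epithelial cells in the basement membrane. The integrin α6β4, encoded by Itga6 and Itgb4, binds it from the cell side. In the hemidesmosome this integrin is joined by the transmembrane collagen XVII (Col17a1) and the tetraspanin CD151, and is tied to keratin filaments by the plakins plectin (Plec) and dystonin (Dst, whose epithelial form is BPAG1e). Basal cells of the mammary gland and of stratified epithelia carry these junctions, and carcinoma cells can use the same laminin and integrin for migration.

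The library labelled shAsns-1 held 10244753 reads on genes and the other libraries 10472179 to 15955168. At these depths 3 reads, given for scale and not used as a filter, stand for 0.188 to 0.293 CPM (a gene's reads scaled to a fixed total of gene reads). Asns, the target of the hairpins, measured 110.4 CPM in the library labelled shAsns-1, against 45.7 and 44.2 CPM in the shAsns-2 libraries, with 58.7 and 56.9 CPM in those of shRenilla. It was thus higher where the hairpin should lower it (log2 fold change over shRenilla 0.92, adjusted p = 6.27e-05, edgeR), and every direction given for that library comes from a library at odds with its label. That library also held reads at 17672 genes, against 15052 to 15392 in the other libraries, and 39.1 CPM over 1102 olfactory receptor genes, a family used mainly in the olfactory epithelium, against 6.62 to 10.8 CPM in the other libraries. Epithelial markers summed to 886 CPM there, to 1100 and 1091 CPM in shAsns-2 and to 1046 and 1030 CPM in shRenilla, with 0 of 8 at 0 in any library. Fibroblast markers summed to 40.6 CPM in the library labelled shAsns-1 and 30.7 to 32.1 CPM in the other libraries (8 genes, with Lum at 0 in every library). Pdgfra made up most of each sum, with 38.1 CPM in the library labelled shAsns-1 and averages of 29.5 CPM in shAsns-2 and 28.6 CPM in shRenilla. In the same order, the 7 leukocyte markers in the table summed to 6.83 CPM and 4.76 to 6.999 CPM (Lyz2 at 0 in every library), and the 5 endothelial markers to 1.37 CPM and 0.360 to 1.43 CPM. The part of these differences in the results below was not tested.

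RefSeq promoter windows (GRCm38.p6) were matched for 4 of the 8 members (Lamb3, Col17a1, Dst and Cd151). The 250 bases before the upstream RefSeq start of Lamb3, the laminin chain matched, are set beside those of Cd151, a hemidesmosome member that was not called in the library labelled shAsns-1. Lamb3 lies on the plus strand at chr1:193301744-193301993 and Cd151 on the plus strand at chr7:141467112-141467361, both 5′ to 3′, with capitals for matches to GGGCGG, the SP1 box, on either strand.
Lamb3: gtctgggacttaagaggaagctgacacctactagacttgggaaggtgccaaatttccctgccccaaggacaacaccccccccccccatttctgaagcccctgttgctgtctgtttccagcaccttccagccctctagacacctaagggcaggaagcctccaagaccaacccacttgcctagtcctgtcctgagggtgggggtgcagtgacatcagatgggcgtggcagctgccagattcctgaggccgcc
Cd151: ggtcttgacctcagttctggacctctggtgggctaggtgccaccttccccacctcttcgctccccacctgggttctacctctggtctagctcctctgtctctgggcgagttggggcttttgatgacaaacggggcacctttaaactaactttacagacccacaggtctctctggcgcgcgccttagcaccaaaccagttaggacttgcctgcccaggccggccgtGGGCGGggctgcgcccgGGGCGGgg
The Lamb3 stretch had 0 matches to GGGCGG and the Cd151 stretch 2. The windows not printed had 0 for the downstream starts of Lamb3, Cd151 and Dst, 0 for Col17a1, which was not called either, and 4 for the upstream start of Dst. At least 1 match was held by 32.7% of 32851 RefSeq windows of the same length. The AP-1 box TGANTCA, searched on both strands, was at 0 places in either stretch and in 6.75% of all windows. These counts describe letters in these windows only.

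Lama3 and Lamb3 were far lower in the library labelled shAsns-1 than in any other library. Lama3 (GRCm38 chr18:12333819-12583013, plus strand), the α3 chain that carries the integrin-binding end of the trimer, had 8.004 CPM (82 reads) in the library labelled shAsns-1, 40.7 and 34.8 CPM in the shAsns-2 libraries (A, then B, as in all such pairs), and 31.7 and 28.7 CPM in those of shRenilla. The library labelled shAsns-1 was the low one. Lamb3 (chr1:193207699-193343878, plus strand), the β3 chain, had 14.0 CPM (143 reads) in the library labelled shAsns-1, 43.8 and 42.8 CPM in shAsns-2, and 45.7 and 44.1 CPM in shRenilla. Here too only the library labelled shAsns-1 stood apart, while the other 4 libraries ran from 42.8 to 45.7 CPM. Relative to shRenilla the log2 fold change was -1.93 for Lama3 (0.263-fold) and -1.70 for Lamb3 (0.308-fold). From the lowest upwards these were the 47th and the 67th of 12457 genes tested. In bulk RNA, fewer cells that make a transcript and less of it per cell cannot be told apart.

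**Figure D1:**
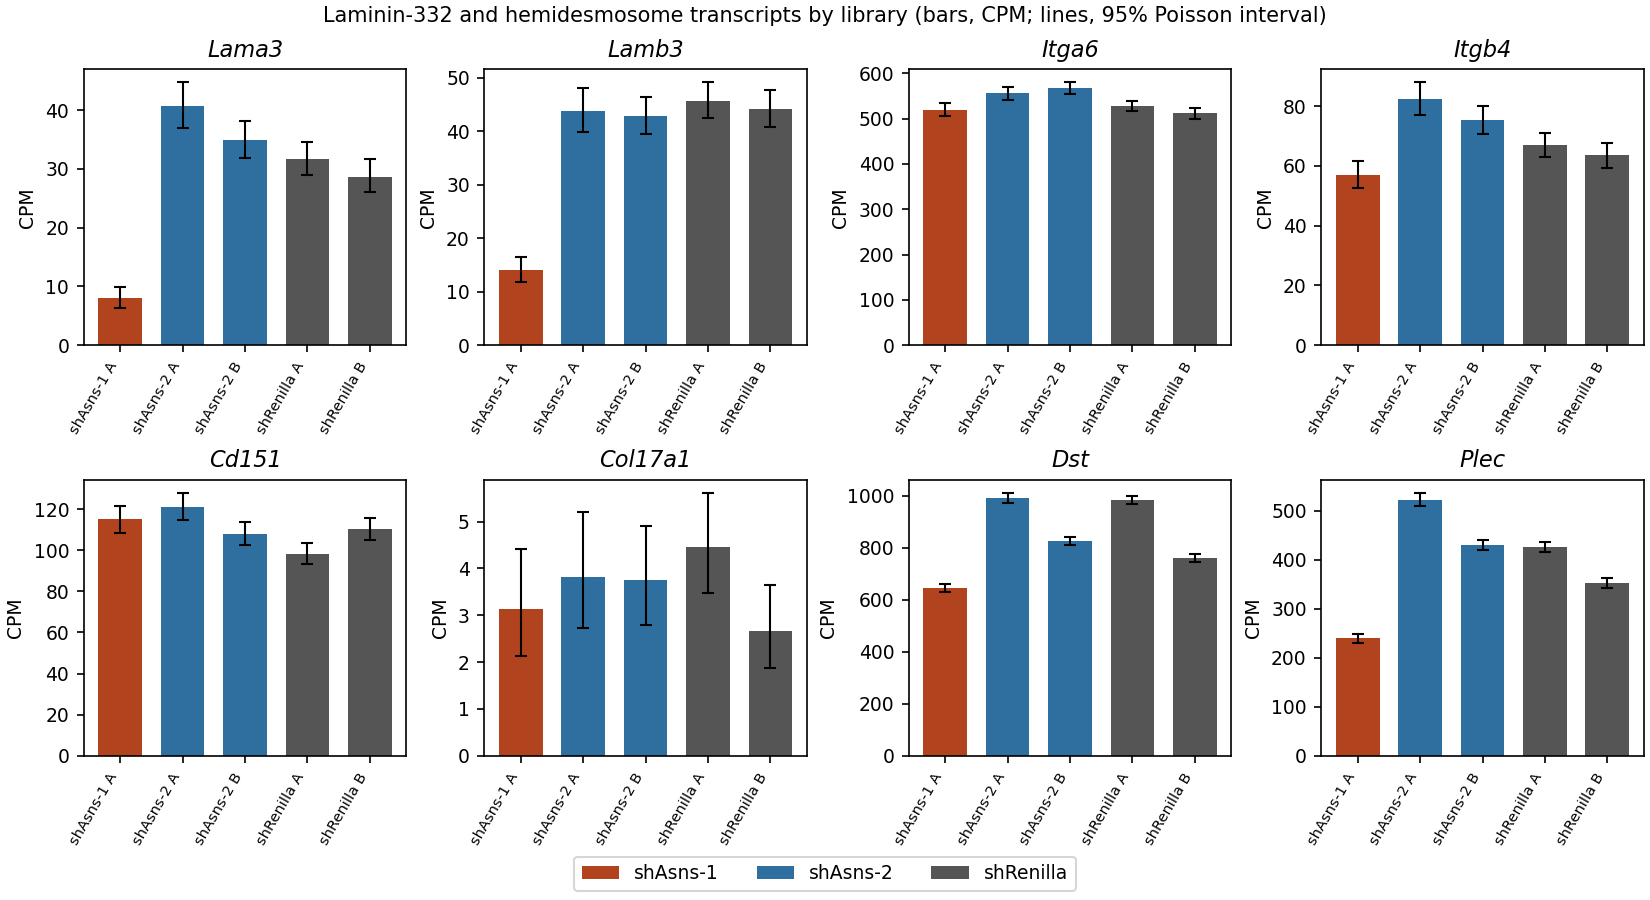
Level of each transcript (y axis, CPM) in the 5 libraries with reads (x axis), with 95% Poisson intervals, which cover counting error only. Lama3 and Lamb3 stand at 8.004 and 14.0 CPM in the library labelled shAsns-1, Plec is lower there by less, and Itga6 and Cd151 lie there within the range of the other libraries.

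Divided by either length used below, Lama3 stood below Lamb3 in all 5 libraries, and furthest below in the library labelled shAsns-1. For Lama3, with 2 annotated transcripts, these lengths were nearly alike, at 10745 and 10548 bases. A shorter form of Lama3 was not tried as the length, and would raise its level against Lamb3. In TPM, which divides reads by exon length (here the union of annotated exons) before scaling to a fixed total, Lama3 stood at 3.19 TPM in the library labelled shAsns-1 and averaged 15.3 TPM in shAsns-2 and 12.3 TPM in shRenilla. Lamb3 stood at 9.04 TPM in the library labelled shAsns-1 and averaged 28.6 TPM in shAsns-2 and 29.7 TPM in shRenilla. The ratio of Lama3 to Lamb3 in TPM was 0.353 in the library labelled shAsns-1, against 0.571 and 0.501 in the shAsns-2 libraries, and 0.426 and 0.400 in shRenilla. With the length of the longest annotated transcript in place of the exon union, it was 0.265 in the library labelled shAsns-1, against 0.428 and 0.376 in the shAsns-2 libraries, and 0.320 and 0.3003 in shRenilla. The order of the groups was the same with either length, and no groups overlapped. Both genes were chosen for low levels in the library labelled shAsns-1, so its place in this order is a description without a test. The counting error of the ratio was not estimated.

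**Figure D2:**
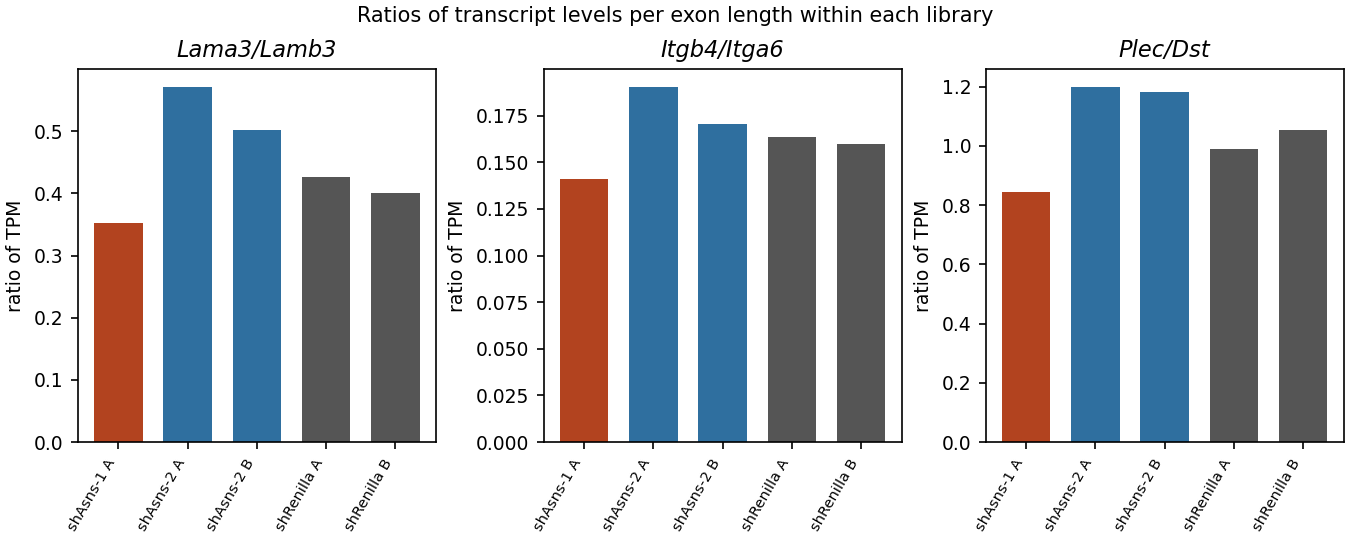
Ratio of TPM values (y axis) of Lama3 to Lamb3, Itgb4 to Itga6 and Plec to Dst in each library (x axis, ordered as shAsns-1, shAsns-2, shRenilla, each hairpin in its own colour). All 3 ratios are lowest in the library labelled shAsns-1, at 0.353, 0.141 and 0.843, and highest in shAsns-2 A. Lama3 and Lamb3 were chosen for low levels in the library labelled shAsns-1.

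Neither subunit of the integrin receptor was called in the library labelled shAsns-1 against shRenilla. An adjusted p under 0.05 (edgeR quasi-likelihood test, Benjamini-Hochberg adjustment over all genes tested) is the rule for a call throughout. Itga6 (chr2:71745616-71858416, plus strand), the α6 subunit, had 519 CPM in the library labelled shAsns-1, 557 and 567 CPM in shAsns-2, and 527 and 512 CPM in shRenilla. Its value in the library labelled shAsns-1 lay between the shRenilla libraries, with a log2 fold change of -0.01 and a 95% interval of -0.21 to 0.19 (adjusted p = 0.957, edgeR). Itgb4 (chr11:115974709-116008412, plus strand), the β4 subunit with the long tail that binds plectin, had 57.0 CPM in the library labelled shAsns-1, 82.3 and 75.2 CPM in shAsns-2, and 66.9 and 63.6 CPM in shRenilla. It was lowest in the library labelled shAsns-1 and highest in shAsns-2, and no groups overlapped. Its log2 fold change against shRenilla was -0.21 (SE 0.113, 95% interval -0.45 to 0.03, adjusted p = 0.329, edgeR) and was not called. Against shAsns-2 it was -0.50 (SE 0.113, adjusted p = 0.0266, edgeR), a call that was lost with DESeq2 (adjusted p = 0.0635), with the trend on GC content removed (-0.37, adjusted p = 0.117), without shAsns-2 A (adjusted p = 0.308) and without shAsns-2 B (adjusted p = 0.0742). Per length Itgb4 stayed far below its partner: the ratio of Itgb4 to Itga6 in TPM was 0.141 in the library labelled shAsns-1, against 0.190 and 0.171 in the shAsns-2 libraries, and 0.163 and 0.160 in shRenilla.

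Cd151 and Col17a1, the other transmembrane members, were not called. Cd151 (chr7:141467392-141471473, plus strand), a tetraspanin that binds laminin-binding integrins, had 115 CPM in the library labelled shAsns-1, 121 and 108 CPM in shAsns-2, and 98.4 and 110.3 CPM in shRenilla. The groups overlapped, and its log2 fold change against shRenilla was 0.13 (95% interval -0.10 to 0.36, adjusted p = 0.563, edgeR). Col17a1 (chr19:47646344-47692094, minus strand) was at the edge of what this depth shows, with 32 reads (3.12 CPM) in the library labelled shAsns-1, 40 and 52 reads (3.82 and 3.74 CPM) in shAsns-2, and 71 and 38 reads (4.45 and 2.66 CPM) in shRenilla. The shRenilla libraries enclosed all the others, and the 95% interval of its log2 fold change, -0.96 to 0.54, is too wide to show a difference of the size seen in Plec.

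Of the plaque proteins, Plec fell in the library labelled shAsns-1, where 2.06% of all tested genes were called lower. Plectin is the plakin that links the β4 tail to keratin filaments. Plec (chr15:76170974-76232574, minus strand) shares 1.13% of its exonic bases with Parp10 on the same strand. It had 239.7 CPM in the library labelled shAsns-1, 523 and 430.4 CPM in shAsns-2, and 427 and 352 CPM in shRenilla. The library labelled shAsns-1 was the lowest, and shAsns-2 A the highest. Against shRenilla Plec changed by -0.71 on the log2 scale (SE 0.134, 0.610-fold, 95% interval 0.501 to 0.742, adjusted p = 0.00601, edgeR). That call was lost with DESeq2 (-0.71, adjusted p = 0.0975) and without shRenilla A (-0.56, adjusted p = 0.0569). Against shAsns-2 the difference was larger, at -1.03 (SE 0.136, adjusted p = 0.000636, edgeR), and was called in all 11 alternatives.

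Dst (chr1:33908225-34308661, plus strand), the largest gene of the group with 41155 exonic bases, was not called. Counts per gene pool its 20 annotated transcripts, so these values do not show the level of the epithelial form BPAG1e. Dst had 646 CPM in the library labelled shAsns-1, 991 and 827 CPM in shAsns-2, and 982 and 760 CPM in shRenilla. The library labelled shAsns-1 was the lowest, but library A exceeded library B in shAsns-2 and in shRenilla by more than shRenilla B exceeded the library labelled shAsns-1. The log2 fold change was -0.44 against shRenilla (SE 0.140, adjusted p = 0.0826, edgeR) and -0.53 against shAsns-2 (SE 0.141, adjusted p = 0.0582, edgeR). The call against shRenilla was made without shRenilla B (-0.62, adjusted p = 0.0103, edgeR) and without the filter on low counts (-0.46, adjusted p = 0.000187). The call against shAsns-2 was made without shRenilla A (adjusted p = 0.0383), without shRenilla B (adjusted p = 0.0146), without the filter (adjusted p = 4.77e-06) and with a replicate block (-0.69, adjusted p = 4.97e-07). Of the members, Dst, Plec and also Lama3 have a longest transcript of at least 10000 bases. Plec, at 61.3%, and Itgb4 have a GC content of at least 60%. The log2 fold change in the library labelled shAsns-1 over shRenilla had rank correlations of -0.0511 with length and -0.233 with GC (Spearman, 11748 genes). Tested genes whose longest transcript had at least 10000 bases had a median log2 fold change of -0.14 in the library labelled shAsns-1 (286 genes), against -0.01 over all genes, and those with at least 60% GC had one of -0.09 (454 genes). Of the long genes, 8.74% were called in either direction against shRenilla (edgeR), beside 4.37% of all tested genes. With the trend on GC content removed, Plec stood at -0.64 (adjusted p = 0.0117, edgeR), Lama3 at -1.88 and Lamb3 at -1.62. The part of transcript length was not tested.

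In the library labelled shAsns-1, 1 of the 6 members besides Lama3 and Lamb3 fell against shRenilla (Plec), 0 rose and 5 were not called. Over all 12457 genes 4.37% were called in that comparison, 2.06% lower and 2.31% higher. At an unadjusted p under 0.05, 2 of the 6 were lower and 0 higher (edgeR), beside 1189 lower and 1250 higher of all 12457 genes. DESeq2 called 0 of the 6, limma-voom 1 and edgeR with no filter on low counts 2. The median log2 fold change of the 6 was -0.21, against -0.01 over all genes tested. In CPM, 3 of the 6 (Itgb4, Dst and Plec) lay below all 4 other libraries, as did 24.3% of the tested genes, and 0 of the 6 lay above them, as did 31% of the tested genes. Against shAsns-2, 2 of the 6 fell (Plec and Itgb4) and 0 rose, beside 2.14% of all genes called in either direction, 1.33% lower and 0.811% higher (166 and 101 genes, against 129 and 144 without TMM scaling). DESeq2 called 1 of them and limma-voom 2. The count was also 1 with the GC trend removed and without either shAsns-2 library, and 3 with no filter on low counts, with a replicate block and without either shRenilla library.

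**Figure D3:**
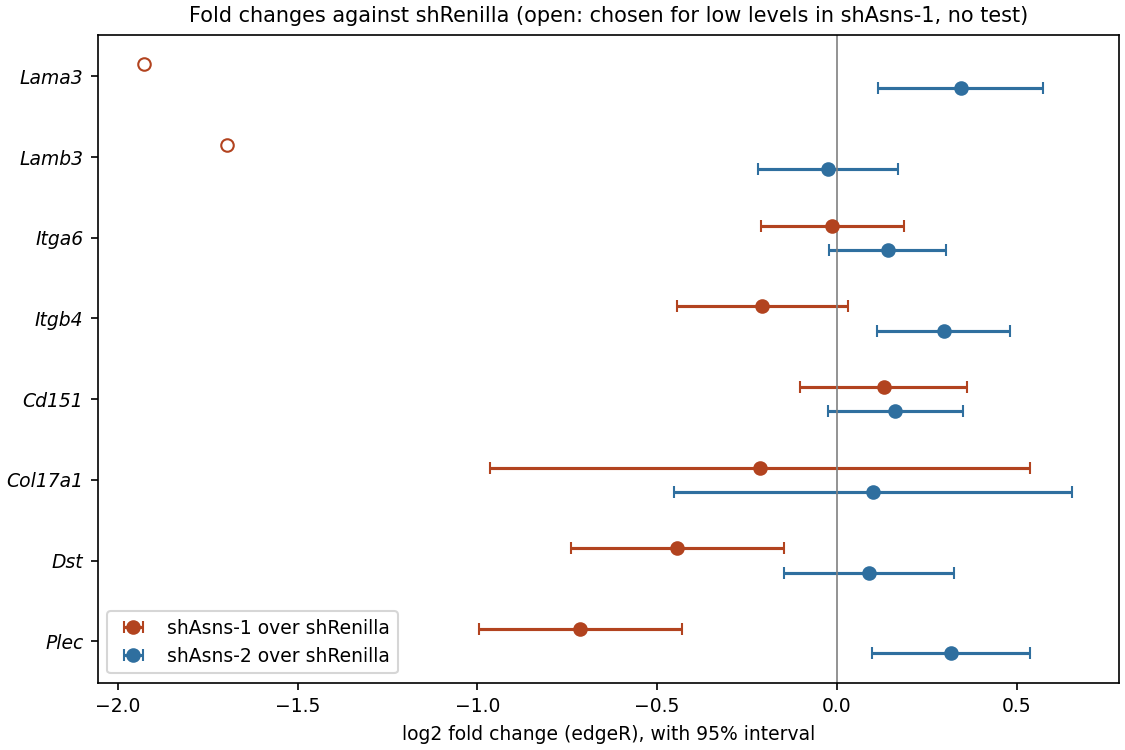
Log2 fold change from edgeR (x axis) for each transcript (y axis), with its 95% interval where a test was allowed, for the library labelled shAsns-1 and for shAsns-2, both over shRenilla. Open points without an interval mark the genes chosen for low levels in the library labelled shAsns-1, at -1.93 and -1.70, and the points of shAsns-2 lie between -0.03 and 0.34.

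The shAsns-2 comparison used the same shRenilla libraries. No laminin or hemidesmosome gene passed the test in shAsns-2. Asns itself averaged 45.0 ± 1.08 CPM in shAsns-2 and 57.8 ± 1.29 CPM in shRenilla (SD, n = 2 each), a log2 fold change of -0.34 that was not called (adjusted p = 0.216, edgeR). Of the 8 members 0 rose and 0 fell, beside 0.0642% of all genes called. At an unadjusted p under 0.05 edgeR gave 3 higher (Itgb4, Lama3 and Plec) and 0 lower. Over all 12457 tested genes, 696 were higher and 504 lower at that level. DESeq2 and limma-voom called 0 of the 8 members. Lama3 averaged 37.8 ± 4.12 CPM in shAsns-2 and 30.2 ± 2.09 CPM in shRenilla (SD, n = 2 each), a log2 fold change of 0.34 (SE 0.109, unadjusted p = 0.00577, adjusted p = 0.321, edgeR). Itgb4 averaged 78.8 ± 5.00 CPM in shAsns-2 and 65.2 ± 2.39 CPM in shRenilla (0.30, SE 0.0877, adjusted p = 0.282, edgeR). Plec averaged 476.6 ± 65.4 CPM in shAsns-2 and 389.6 ± 52.5 CPM in shRenilla (0.32, SE 0.104, adjusted p = 0.331, edgeR). The groups did not overlap for these genes and for Itga6, so that 4 of 8 members had both shAsns-2 libraries above both shRenilla libraries, as had 16.6% of all tested genes. Lamb3 had both below, as had 25.8% of all tested genes, with a log2 fold change of -0.03. The median of the 8 was 0.15, against -0.00 over all genes. The 95% intervals of shAsns-2 over shRenilla were 0.11 to 0.57 for Lama3 and -0.22 to 0.17 for Lamb3.

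**Figure D4:**
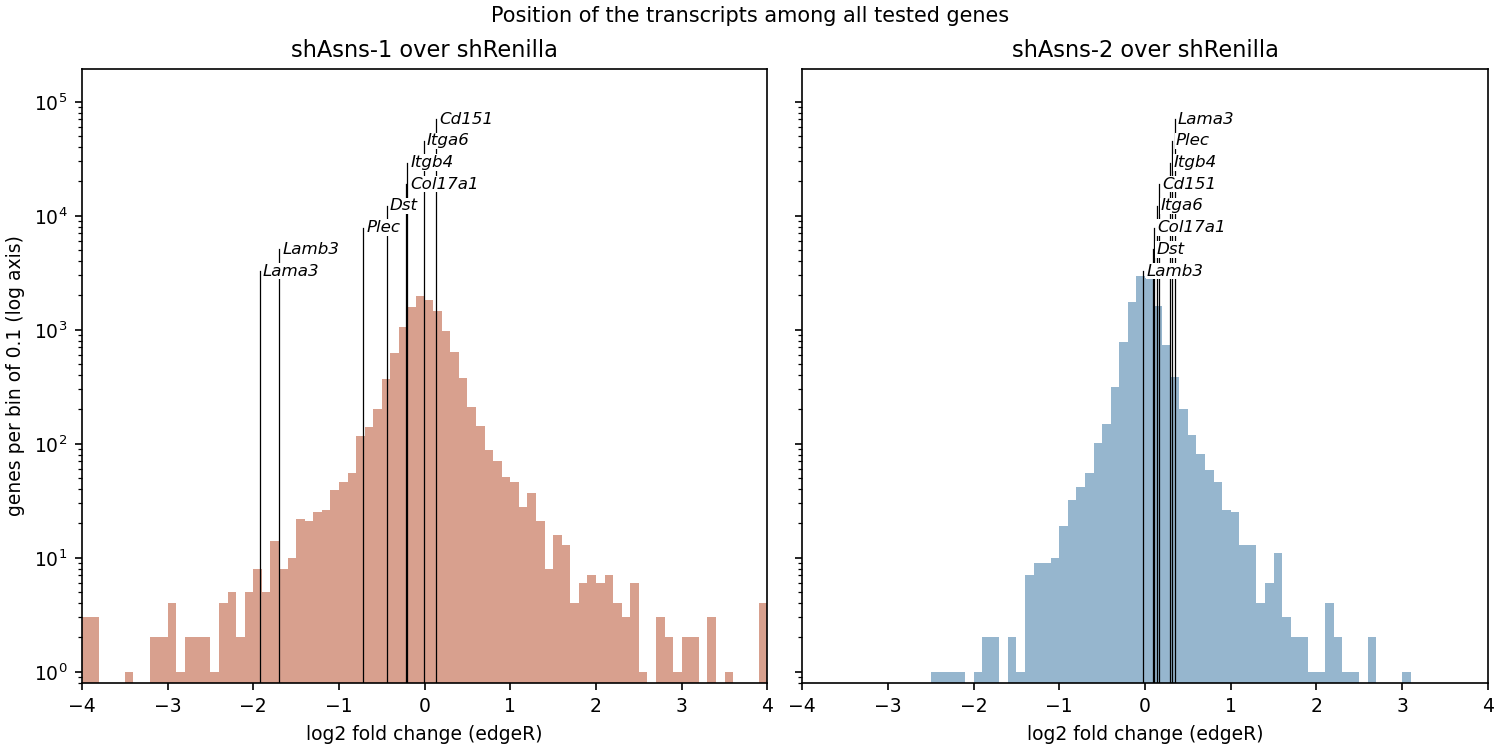
Number of tested genes (y axis, log scale) by log2 fold change (x axis, bins of 0.1), with a line for each transcript, for the library labelled shAsns-1 and for shAsns-2, both over shRenilla; the outermost bins also hold 7 genes beyond the axis in the first. Lama3 and Lamb3 lie in the lower tail on the left and Plec on its shoulder, while on the right all lie between -0.03 and 0.34.

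Among the members the order of levels per length was nearly the same in every group. In shRenilla, Itga6 was highest at 252 ± 6.99 TPM and Cd151 next at 166.7 ± 12.4 TPM, followed by Plec at 94.3 ± 13.3, Dst at 92.8 ± 17.3, Itgb4 at 40.8 ± 1.76, Lamb3 at 29.7 ± 0.942, Lama3 at 12.3 ± 0.932 and Col17a1 at 2.59 ± 0.940 TPM (SD, n = 2 each). Plec and Dst differed by less than the spread between libraries, and in the library labelled shAsns-1 Plec stood below Dst (56.7 and 67.3 TPM). With the longest transcript as the length, Dst stood above Plec in every group. All other neighbours in shRenilla were further apart than their SDs.

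Of the other laminin chains, Lama5, Lamb1, Lamb2 and Lamc1, parts of the more widespread laminins, were not called in the library labelled shAsns-1. They had log2 fold changes of -0.14, -0.14, 0.18 and -0.23 in the library labelled shAsns-1 over shRenilla (edgeR adjusted p = 0.194 to 0.647), and Lamc1 was the 1 lower at an unadjusted p under 0.05, while DESeq2 and limma-voom called 0 of them. Lama1, Lama2, Lama4 and Lamc3 had 0 to 4 reads in each library and were not tested. In shAsns-2, 0 of these 4 tested chains were called (edgeR, with 1 higher at an unadjusted p under 0.05; DESeq2 and limma-voom also called 0).

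Among 14 tested receptors and integrins outside the member list, 2 fell in the library labelled shAsns-1, 0 rose and 12 were not called, with a median log2 fold change of -0.22, beside the 2.06% of all tested genes called lower. DESeq2 called 1 of the 14 and limma-voom 1. Itga2, which pairs with β1 as a collagen and laminin receptor, had 99.8 CPM in the library labelled shAsns-1, 119 and 118 CPM in shAsns-2, and 137 and 137 CPM in shRenilla (-0.46, adjusted p = 0.0143, edgeR). Itgb6, the epithelial partner of αv, had 22 reads in the library labelled shAsns-1, 47 in each shAsns-2 library, and 78 and 87 reads in shRenilla (-1.36, adjusted p = 0.0299, edgeR). The integrin α3β1, the other main receptor of laminin-332, was not called, with Itga3 at -0.29 (adjusted p = 0.129, edgeR) and Itgb1 at -0.24 (adjusted p = 0.190, edgeR). In shAsns-2, 0 of the 14 were called by edgeR, DESeq2 or limma-voom, with 2 higher and 3 lower at an unadjusted p under 0.05. For Itga2 and Itgb6, both shAsns-2 libraries lay below both shRenilla libraries in CPM, as for 25.8% of all tested genes. Against shAsns-2, 0 of the 14 were called in the library labelled shAsns-1 by any of these methods.

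Of 12 tested basement membrane and anchoring fibril genes, 2 fell in the library labelled shAsns-1, 0 rose and 10 were not called (median -0.23), beside the 2.06% of all tested genes called lower. DESeq2 called 1 of the 12 and limma-voom 2. Lad1, the anchoring filament protein ladinin, had 84.8 CPM in the library labelled shAsns-1, 127.6 and 122 CPM in shAsns-2, and 115 and 129.6 CPM in shRenilla (-0.54, adjusted p = 0.00904, edgeR). Col7a1, the collagen of the anchoring fibrils that hold laminin-332 to the stroma, had 45.1 CPM in the library labelled shAsns-1, 62.5 and 59.9 CPM in shAsns-2, and 70.9 and 58.7 CPM in shRenilla (-0.54, adjusted p = 0.0274, edgeR). Of 6 tested proteases of laminin-332 and its surroundings, Mmp9, a gelatinase, fell, with 41 reads in the library labelled shAsns-1, 93 and 150 reads in shAsns-2, and 189 and 201 reads in shRenilla (-1.70, adjusted p = 0.000608, edgeR), and 5 were not called, with 1 called by DESeq2 and 1 by limma-voom. Of 7 other tetraspanins 0 were called by edgeR, DESeq2 or limma-voom (3 higher at an unadjusted p under 0.05).

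In the library labelled shAsns-1, beside the 2.06% of all tested genes called lower, 1 of 5 other plakins and 3 of 7 tested epithelial keratins fell against shRenilla. Of the plakins, Dsp, the desmosomal plakin desmoplakin, fell (-0.96, adjusted p = 0.000486, edgeR) and 4 were not called, and DESeq2 and limma-voom called 1 each. Of the keratins 0 rose and 4 were not called, with a median of -0.55, and DESeq2 and limma-voom called 2 each. Krt14, a basal keratin to which hemidesmosomes attach, had 2.83 CPM (29 reads) in the library labelled shAsns-1, 11.8 and 12.5 CPM in shAsns-2, and 12.8 and 13.2 CPM in shRenilla. Its log2 fold change was -2.21 (adjusted p = 5.30e-05, edgeR), and Krt7 (-0.78, adjusted p = 0.000429) and Krt19 (-0.55, adjusted p = 0.0459), simple-epithelium keratins, were the others. Krt5, the usual partner of Krt14, had 0 to 2 reads in each library and was not tested. Trp63, the transcription factor of basal epithelial identity, had 0 to 8 reads and was not tested. Of 16 tested transcription factors of epithelial adhesion genes, Grhl2, an activator of epithelial genes, fell (-0.56, adjusted p = 0.0311, edgeR), Zeb2, a repressor of them, rose (0.43, adjusted p = 0.0204, edgeR), and 14 were not called. DESeq2 called 1 of the 16 and limma-voom 2. Zeb2 had 280.7 CPM in the library labelled shAsns-1 and averaged 234.3 CPM in shAsns-2 and 207.0 CPM in shRenilla. Against shAsns-2, edgeR called 0 of the 16 higher and 1 lower in the library labelled shAsns-1. Of 19 kinases and adaptors that act with α6β4, 0 were called by edgeR, DESeq2 or limma-voom (2 higher and 3 lower at an unadjusted p under 0.05). Of the 8 epithelial carcinoma markers, 3 fell by edgeR (Epcam at -0.69, Cdh1 at -0.48 and Krt19), with 2 called by DESeq2 and 2 by limma-voom, and their part in the keratin result was not tested. In shAsns-2 over shRenilla, 0 genes of these lists, from the basement membrane to the kinases, were called by edgeR, DESeq2 or limma-voom. At an unadjusted p under 0.05, 0 to 2 genes a list were higher and 0 to 1 lower. Of the 8 epithelial carcinoma markers 0 were called in shAsns-2 by these methods, with 3 higher and 0 lower at the unadjusted level.

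The profiles most like those of the chosen chains were found by the Euclidean distance between log2 CPM values centred on each gene's mean over the 5 libraries, among 8541 well-expressed genes. Nearest to Lama3 were Esrp1 (distance 0.427), Krt14 (0.484), Lamb3 (0.539), Rgs16 (0.725) and Adam12 (0.764). Nearest to Lamb3 were Rgs16 (0.202), Esrp1 (0.242), Adam12 (0.265), Il24 (0.362) and Macc1 (0.384). Esrp1, an epithelial splicing regulator and the only gene besides Rgs16 and Adam12 on both lists, had 4.30 CPM in the library labelled shAsns-1, 16.9 and 14.4 CPM in shAsns-2, and 15.3 and 16.4 CPM in shRenilla, scaled to the reads of tested genes. No other member was among the nearest genes, and the distances rest on 5 libraries, which include the one on which Lama3 and Lamb3 were chosen.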

How the data were processed

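Total RNA of 4T1 cells (4T1_T in the deposited table) with hairpin shAsns-1, shAsns-2 or shRenilla was amplified with the Nugen Ovation kit and sequenced, per the labels. The authors deposited whole-number read counts per gene for 6 libraries, of which the column of shAsns-1 B was 0 throughout and was left out. Per the submitters' processing notes, the tools were Bowtie2 and HTSeq and the build mm10; the sources used here give no version, annotation or strand setting. Without a known strand setting, reads of antisense neighbours, which share up to 7.66% of a member's exonic bases (Itgb4), cannot be told apart. HTSeq's tallies stayed out of library sizes and tests: reads in no feature were 36.1 to 38.3% of all reads, unaligned reads 17.9 to 23.2% and ambiguous reads 0.584 to 0.626%. Reads of a group differed by more than sampling noise (ratio of chi-square to its degrees of freedom 3.17 between shAsns-2 libraries, 9.20 between those of shRenilla), so libraries were counted singly.

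Counts were fitted with edgeR 4.0.16 (R 4.3.3, quasi-likelihood, TMM, filterByExpr by group, 12457 genes kept, all 8 members among them) in 1 model of group means with 2 residual degrees of freedom, in which the lone shAsns-1 library is assumed to vary like the other groups. The design allowed for the empty column. Fold changes are log2 values of that fit; p-values were adjusted by Benjamini-Hochberg over all genes tested. The fit was tested on simulated data. CPM uses gene reads as the total. TPM, gene positions and GC content rest on GENCODE M21 (GRCm38), which matched 93.3% of the gene symbols. Alternatives were DESeq2 1.42.0, limma-voom 3.58.1, other scalings, no filter, a replicate block, a GC offset (lowess span 0.3) and leaving out each library. The members and gene lists were chosen with earlier results of these data known. Genes named were the members, Itga3, Itgb1, Col7a1, Krt5, Krt14, Trp63 and Asns, up to 3 called genes of a list with the smallest adjusted p, and the 5 profiles nearest to Lama3 and Lamb3 among genes whose average log2 CPM reached 3, without predicted genes, clone names or pseudogenes. Results on 1 further gene are not reported here.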

Additional observations from a re-analysis of the deposited data

Results flagged for a closer look

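Of the 6 members counted, 2 differed between the library labelled shAsns-1 and shAsns-2, beside 2.14% of all tested genes (1.33% lower). The test was of the difference itself, the fold change of the library labelled shAsns-1 over shAsns-2 in edgeR's fit. Plec differed by -1.03 on the log2 scale (adjusted p = 0.000636) and Itgb4 by -0.50 (adjusted p = 0.0266). The call of Itgb4 was lost with DESeq2 (adjusted p = 0.0635), with the GC trend removed (adjusted p = 0.117), without shAsns-2 A (adjusted p = 0.308) and without shAsns-2 B (adjusted p = 0.0742). Lama3 and Lamb3, whose log2 differences were -2.27 and -1.67, have no test, since they were chosen for that library. The library labelled shAsns-1 had Asns above the other libraries and 39.1 CPM of olfactory receptor reads, and their part in these differences was not tested.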

How the results depend on the processing

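Plec was called in the library labelled shAsns-1 against shAsns-2 under all 11 alternatives. The 6 members counted in that library gave 1 call against shRenilla as reported, 0 with DESeq2, 2 with no filter, 2 with a replicate block and 0 to 2 without a library. The 8 members in shAsns-2 gave 0 calls, and 1 with no filter or with the replicate block (Plec at 0.32, adjusted p = 0.0195, edgeR). Against shAsns-2 the 6 members gave 2 calls, 1 with DESeq2, 1 with the GC trend removed, 3 with no filter, 3 with the replicate block and 1 to 3 without a library. Dst against shRenilla was -0.60 under the replicate block (adjusted p = 2.56e-05, edgeR), though the labels do not say whether the letters A and B pair libraries. The correlation of deviations over all tested genes was -0.0173 for shAsns-2 A with shRenilla A. It covers all genes together, and a shared effect on single genes was not tested. Dst and Plec were higher in library A than in library B in both shAsns-2 and shRenilla. Over all genes, the library labelled shAsns-1 gave 544 calls against shRenilla, 253 with DESeq2, 919 with no filter, 924 with the replicate block and 290 to 825 without a library. For shAsns-2 there were 8 calls, 114 with no filter, 178 with the replicate block and 0 to 47 without a library. Against shAsns-2 the library labelled shAsns-1 gave 267, 156 with DESeq2, 608 with no filter, 875 with the replicate block, 148 with the GC trend removed and 58 to 642 without a library. Lower calls were 62.2% of these, 73.1% with DESeq2, 73.6% with the GC trend removed and 47.3% without TMM. Leaving out library A of shAsns-2 gave 77.6% lower and leaving out its library B 86.1%. Small fold changes turned sign. Itga6 in the library labelled shAsns-1 over shRenilla stood at 0.000641 without TMM, 0.00986 with the GC trend removed and -0.041 to 0.019 without a library, and Col17a1 at -0.53 to 0.23 without a library, highest without shRenilla A in both. In shAsns-2 over shRenilla, leaving out a library gave -0.059 to 0.010 for Lamb3, -0.22 to 0.54 for Col17a1 and -0.091 to 0.30 for Dst, each highest without shRenilla A and lowest without shRenilla B. Cd151 in the library labelled shAsns-1 over shAsns-2 was 0.0085 without TMM, 0.038 with the GC trend removed, and -0.12 without shAsns-2 B to 0.055 without shAsns-2 A. The cause of these moves was not tested. Depth limits Col17a1, which had 32 to 71 reads a library.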
